A study of Mus musculus with 6 samples.

Results

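Genes for inhibitors of serine and cysteine proteases were followed in cystic kidney tissue of Fh1 knockout mice and in kidney tissue of wild-type littermates. They were picked by symbol from the platform annotation: the serpins, the Spint, Spink, Wfdc, Tfpi and Itih families, Slpi, the cystatins and the stefins, each taken from probe sets that list exactly 1 gene. The rule gave 82 genes of the 18193 measured. One of them, Cstad, only shares the letters of its symbol with the cystatins and is counted apart from the 8 families. One further heavy chain gene of the Itih family is not analysed here.

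The study hybridised RNA from macro-dissected renal epithelium to 6 Affymetrix arrays, 3 labelled Fh1 knockout (cystic tissue) and 3 labelled wild-type (disease-free littermates, sex-matched according to the design). Fh1 encodes fumarate hydratase, the enzyme of the tricarboxylic acid cycle that turns fumarate into malate. The labels give no strain, allele, Cre driver, age or sex, and do not say whether the arrays of a group come from different animals. The p-values therefore rest on the spread among these 6 samples, which may be technical. Values are RMA expression on the log2 scale (robust multi-array average, a summary of the probes of a set after background correction and normalisation between arrays). They are given below in the order of arrays 1, 2 and 3 of a group. A fold change is knockout against wild-type, with the moderated standard error (SE) of limma, and an adjusted p is limma's two-sided p after the Benjamini-Hochberg step over all 18193 genes. A gene was called at an adjusted p under 0.05. Brightness also depends on the probes, so levels of different genes were not compared.

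Protease inhibitors set where and for how long proteases act. Serpins are suicide substrates: the protease cleaves a loop of the serpin and stays trapped, and clade A members are mostly secreted while clade B members stay inside the cell. Kunitz, Kazal and WAP domains are small disulfide-bonded folds that block the active site of serine proteases, whereas cystatins and stefins block papain-like cysteine proteases such as the cathepsins. In kidney, inhibitors of this kind meet proteases of the urine, of the tubule surface, of lysosomes and of infiltrating leukocytes.

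Of RefSeq promoters on GRCm38.p6, 63 of the 82 genes matched at least 1 and 19 matched none. The 4 printed here are each the 250 bases before the annotated start, 5′ to 3′ on the strand of the gene. The first 3 belong to neighbouring antitrypsin-family genes of chromosome 12 that moved in opposite directions, and the fourth belongs to the gene with the largest fall. Capitals mark GTTAAT, which is part of the recognition sequence of HNF1, a factor of liver and kidney tubule. They also mark TGANTCA, with N as any base, a looser form of the recognition sequence of AP-1. Both were searched on either strand. The Serpina1b window lies at chr12:103738190-103738439, the Serpina1c window at chr12:103904951-103905200 and the Serpina1f window at chr12:103695530-103695779, all on the minus strand. The Wfdc15b window lies at chr2:164221664-164221913 on the minus strand.
Serpina1b: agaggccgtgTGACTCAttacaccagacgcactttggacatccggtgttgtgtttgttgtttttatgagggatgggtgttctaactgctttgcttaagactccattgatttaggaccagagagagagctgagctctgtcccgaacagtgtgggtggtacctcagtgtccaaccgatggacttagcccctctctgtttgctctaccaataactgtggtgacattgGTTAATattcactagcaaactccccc
Serpina1c: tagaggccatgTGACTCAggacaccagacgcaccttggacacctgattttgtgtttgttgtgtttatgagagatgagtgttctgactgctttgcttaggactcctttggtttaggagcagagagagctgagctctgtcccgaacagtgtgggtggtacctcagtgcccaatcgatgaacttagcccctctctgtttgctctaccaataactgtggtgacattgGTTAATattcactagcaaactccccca
Serpina1f: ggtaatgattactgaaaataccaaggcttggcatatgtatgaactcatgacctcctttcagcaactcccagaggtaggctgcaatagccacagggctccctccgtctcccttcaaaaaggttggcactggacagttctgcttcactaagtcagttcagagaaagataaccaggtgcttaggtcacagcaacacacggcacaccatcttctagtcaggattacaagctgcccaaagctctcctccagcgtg
Wfdc15b: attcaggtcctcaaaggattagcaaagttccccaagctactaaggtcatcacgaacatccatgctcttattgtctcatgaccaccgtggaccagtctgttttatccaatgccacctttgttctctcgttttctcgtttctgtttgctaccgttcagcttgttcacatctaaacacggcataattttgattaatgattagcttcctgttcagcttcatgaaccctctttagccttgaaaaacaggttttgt

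The Serpina1b and Serpina1c windows were 92.3% identical over 248 aligned bases. Both held GTTAAT close to the start and TGANTCA at the far end of the window. Among the 5 paralogs Serpina1a to Serpina1e, pairs of windows were 92.1% to 98.0% identical, GTTAAT was present in 5 of 5 and TGANTCA in 4 of 5. The Serpina1f window could not be aligned with them over a useful length and held neither motif, and the Wfdc15b window held neither. Among all 32851 promoter windows, 6.43% held GTTAAT and 6.75% held TGANTCA. Among the 76 windows of inhibitor genes, 13.2% held GTTAAT and 17.1% held TGANTCA. Paralogs with near-identical promoters enter these shares several times, and a match is a run of letters, not a shown binding site.

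Fh1 itself read 12.41, 12.34 and 12.22 in wild-type and 11.54, 11.60 and 11.61 in knockout arrays, so the groups did not overlap, although no source used here says if its probes fall in the targeted exons. One array stood apart before any comparison. Wild-type 2 read 11.96 for Xist, the transcript of the inactive X chromosome, where the other 5 arrays lay between 5.61 and 7.97. It read 4.38 for Kdm5d, 6.20 for Eif2s3y and 5.86 for Uty, all Y-linked, where the other arrays lay between 7.25 and 8.05, between 8.70 and 9.59 and between 7.34 and 7.78. Its sex-linked transcripts therefore did not match those of the other 5 arrays, although the design states sex matching. Wild-type 2 was also the array farthest from its group median, and more than 0.5 from it, in 8 inhibitor genes. These were Wfdc2, Serpinf2, Serpina3n, Serpina6, Serpina1f, Serpina1c, Serpinb1a and Serpinb8. The same held in 0 genes for wild-type 1 and in 3 for wild-type 3. Without it the calls of 7 inhibitor genes changed: Serpina6, Serpini1 and Cst11 were called, and Serping1, Serpina9, Serpinb11 and Wfdc15a were not. Their values without it are given beside the results.

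The inhibitors moved in both directions. Of the 82 genes, 22 (26.8%) rose in the knockout, 18 (22%) fell and 42 were not called, a total of 40 calls. Among all genes 21.6% rose, 27.7% fell and 49.2% were called in either direction. Across the inhibitors the median log2 fold change was -0.12, and across all genes it was -0.11. At least 2-fold calls numbered 13 up and 8 down, or 15.9% and 9.76%, where 5.44% and 3.39% of all genes passed. The 3 knockout values lay wholly above the wild-type values in 22 inhibitor genes and wholly below in 26, beside 25.7% and 37.1% of all genes. Without wild-type 2 the calls were 23 higher and 16 lower. When the tested genes were given the same median on every array, they were 21 higher and 30 lower, so that 58.8% of calls were lower instead of 45.0%. Under the same centring the lower share among calls over all genes went from 56.2% to 67.0%.

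**Figure D1:**
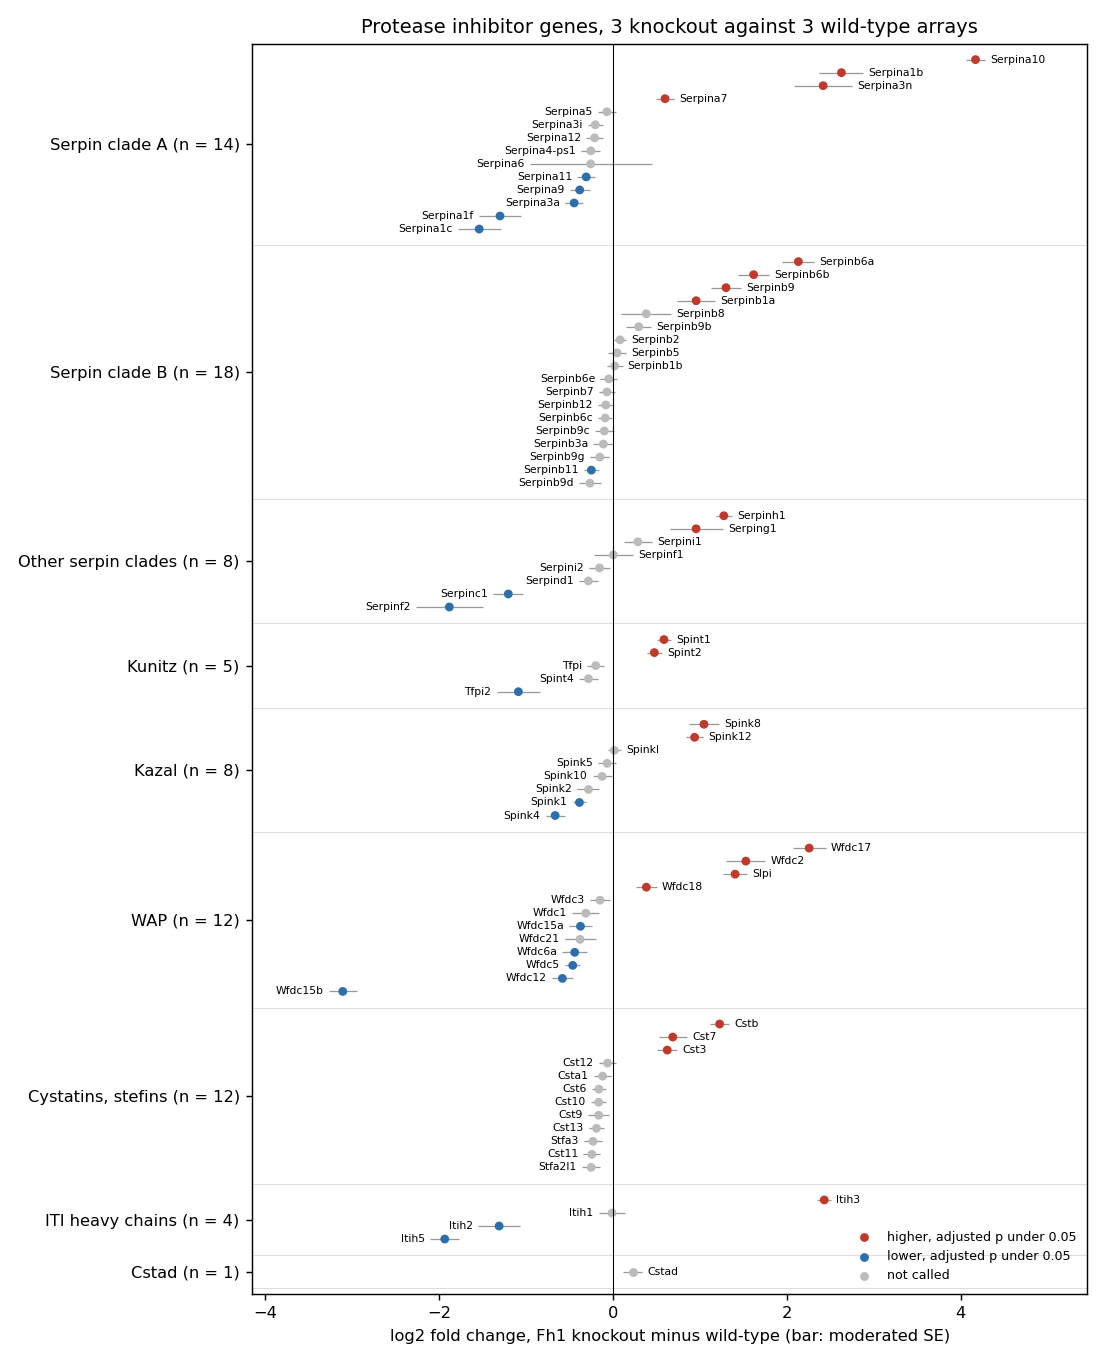
Log2 fold change (knockout minus wild-type, x axis) of each of the 82 inhibitor genes, grouped by family. Points are fold changes from 3 against 3 arrays, bars are moderated SEs, red and blue mark genes called higher and lower at an adjusted p under 0.05, and grey marks genes not called. Serpina10 lies farthest right at 4.17 and Wfdc15b farthest left at -3.11, and most clade B serpins and cystatins lie close to 0.

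The share of genes called differed with the brightness of the probe set. When all genes were split into 4 equal bins by mean signal, the dimmest bin held 39 of the 82 inhibitor genes, of which 2 were called higher and 5 lower. These shares, 5.13% and 12.8%, stood beside 4.33% and 27.6% of all genes in that bin. In the brightest bin all 14 were called, 10 higher and 4 lower. The share called higher there was 71.4%, beside 31.3% of all genes in the same bin, and the share called lower was 28.6%, beside 27.6%. Which genes counted as bright was set by the same arrays, so these shares are a description. RMA gives no detection call, and a gene near the bottom of the range has a compressed fold change.

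**Figure D2:**
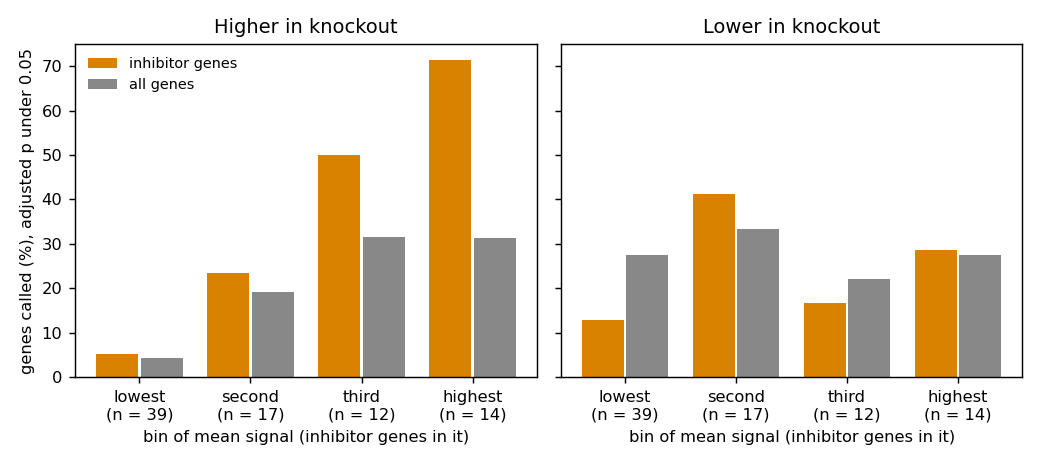
Share of genes called higher (left) and lower (right) in the knockout, in percent, by bin of mean signal over the 6 arrays (4 bins of equal size), with the number of inhibitor genes in each bin below the axis. Orange bars are inhibitor genes and grey bars all genes. The share called higher runs from 5.13% of inhibitor genes in the dimmest bin to 71.4% in the brightest.

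Secreted clade A serpins held the largest rise of the 82 genes and moved in both directions. Of 14 measured, 4 were called higher (Serpina10, Serpina1b, Serpina3n and Serpina7), 5 lower (Serpina1c, Serpina1f, Serpina3a, Serpina9 and Serpina11), and 5 were not called. The shares called higher and lower, 28.6% and 35.7%, stood beside 21.6% and 27.7% of all genes. Serpina10, which encodes the protein Z-dependent inhibitor of activated coagulation factor X, read 6.82, 7.0 and 6.84 in wild-type and 11.19, 11.11 and 10.86 in knockout arrays. The groups were far apart and tight. The difference was 18-fold, with a log2 fold change of 4.17 (SE 0.11, adjusted p = 4.46e-06), and it lay between 4.10 and 4.27 whichever array was left out. It rests on 1 probe set, of a design that may also match related transcripts, which leaving out arrays does not address. Serpina3n, an acute-phase inhibitor of leukocyte proteases, read 5.42, 6.55 and 5.49 in wild-type and 7.92, 8.05 and 8.74 in knockout arrays. Wild-type 2 was the highest of its group and still below every knockout array. The log2 fold change was 2.42 (SE 0.33, adjusted p = 0.000977), and 2.78 without wild-type 2. Serpina7, the thyroxine-binding globulin, is a carrier and no inhibitor. It was dim on all arrays, at 3.36, 3.52 and 3.48 in wild-type and 4.22, 3.98 and 3.95 in knockout, with a log2 fold change of 0.60 (adjusted p = 0.00251).

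The antitrypsin paralogs, elastase inhibitors encoded side by side on chromosome 12, did not move together. Serpina1b read 8.87, 8.67 and 9.24 in wild-type and 11.90, 11.79 and 10.97 in knockout arrays, so that knockout 3 was the lowest of its group and still above the wild-type range. The log2 fold change was 2.63 (SE 0.25, adjusted p = 0.000196), and its other probe set gave 2.75. Serpina1c, whose promoter window is printed above beside that of Serpina1b, read 8.15, 7.36 and 8.44 in wild-type and 6.54, 6.37 and 6.41 in knockout arrays. The groups did not overlap. It was 2.91-fold lower, with a log2 fold change of -1.54 (SE 0.25, adjusted p = 0.00208), and -1.85 without wild-type 2. Serpina1f, a diverged member of the same cluster, read 11.18, 12.18 and 11.40 in wild-type and 10.46, 10.30 and 10.10 in knockout arrays. The log2 fold change was -1.30 (SE 0.24, adjusted p = 0.00397), and -1.0 without wild-type 2, which was the highest array.

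These paralogs are close in sequence, and both Serpina1b probe sets are of a design that may cross-hybridise, so their separate levels are uncertain. A pair of probe sets that list several paralogs, and are therefore not among the 82, read differently again. The probe set shared by Serpina1a and Serpina1d read 11.56, 9.11 and 11.52 in wild-type and 12.51, 12.56 and 12.07 in knockout arrays. Wild-type 2 was far below both other wild-type arrays there. On the log2 scale the fold change was 1.65 with an adjusted p of 0.0521, and 0.84 with an adjusted p of 0.00507 without wild-type 2. The one shared by Serpina1b, Serpina1c and Serpina1e read 6.57, 5.15 and 6.56 in wild-type and 7.31, 7.23 and 6.69 in knockout arrays. It gave a log2 fold change of 0.99 (adjusted p = 0.0603), and 0.52 (adjusted p = 0.0561) without wild-type 2. Omission of wild-type 2 from these shared probe sets was tried after the data were seen.

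Serpina6 lies next to Serpina10 and encodes the corticosteroid-binding globulin. It read 4.69, 7.68 and 4.99 in wild-type and 5.41, 5.84 and 5.33 in knockout arrays. Wild-type 2 lay above every knockout array and the other wild-type arrays below every one. Its log2 fold change was -0.26 (adjusted p = 0.768), with a 95% interval from -1.89 to 1.37. Without wild-type 2 it was 0.69 (adjusted p = 0.0168), a change of sign that rests on that array. The smaller falls were Serpina3a at -0.45, Serpina9 at -0.38 and Serpina11 at -0.31 (adjusted p = 0.00952, 0.0287 and 0.0376). With 1 array left out, the call of Serpina9 held only without knockout 2 (adjusted p up to 0.0720 elsewhere, and -0.38 with 0.0545 without wild-type 2) and that of Serpina11 only without wild-type 1 or wild-type 2 (adjusted p up to 0.108 elsewhere). Serpina5, Serpina3i, Serpina12 and Serpina4-ps1 were not called, with log2 fold changes from -0.26 to -0.07. Other probe sets of Serpina4-ps1 gave -0.33 (adjusted p = 0.0153) and -0.26 (adjusted p = 0.0912).

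**Figure D3:**
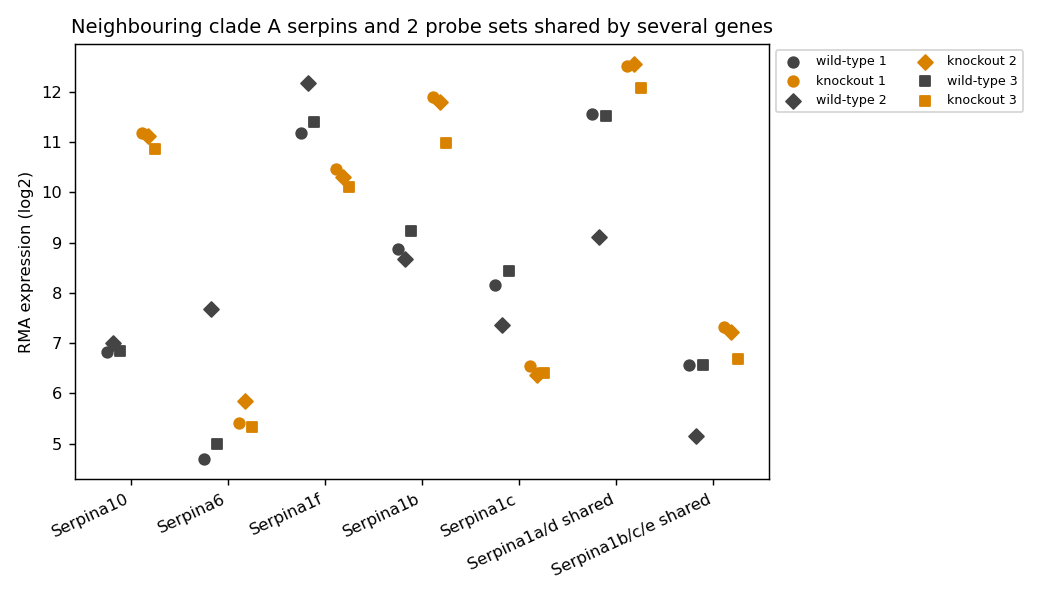
RMA expression (log2, y axis) of 5 clade A serpins of chromosome 12 and of 2 probe sets shared by several paralogs, 1 point per array, with wild-type in grey and knockout in orange and the array number by symbol. Serpina10 and Serpina1b are higher in all 3 knockout arrays and Serpina1f and Serpina1c lower, and wild-type 2 (diamond) stands apart in Serpina6 at 7.68 and in the shared Serpina1a and Serpina1d set at 9.11.

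Intracellular clade B serpins protect cells from leaked or incoming proteases. Of 18 measured, 4 were called higher, 1 lower, and 13 were not called. The share called higher, 22.2%, was near the 21.6% of all genes, and the share called lower was 5.56%, beside 27.7%. Serpinb6a, an inhibitor of thrombin and cathepsin G, read 9.0, 9.02 and 8.30 in wild-type and 10.88, 10.94 and 10.89 in knockout arrays. The knockout arrays were within a narrow range, well above the others. This gave a log2 fold change of 2.13 (SE 0.19, adjusted p = 0.000129), a 4.38-fold difference. Its paralog Serpinb6b read 7.87, 8.19 and 7.46 in wild-type and 9.37, 9.43 and 9.57 in knockout arrays, a log2 fold change of 1.62 (SE 0.17, adjusted p = 0.000319). Serpinb9, the inhibitor of granzyme B, read 9.12, 9.53 and 8.79 in wild-type and 10.32, 10.56 and 10.46 in knockout arrays. The groups did not overlap, and the log2 fold change was 1.30 (SE 0.18, adjusted p = 0.000955). Serpinb1a, an inhibitor of neutrophil elastase, read 7.75, 8.5 and 7.60 in wild-type and 8.99, 8.88 and 8.86 in knockout arrays. Its log2 fold change was 0.95 (SE 0.21, adjusted p = 0.00901), and 1.23 without wild-type 2, the highest wild-type array.

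All 4 raised clade B genes lie in 1 cluster on chromosome 13, between Serpinb1a and Serpinb6a in the order of protein-coding genes. The 7 other members measured in that cluster were not called: Serpinb9b at 0.29, Serpinb1b at 0.02, Serpinb6e at -0.05, Serpinb6c at -0.09, Serpinb9c at -0.10, Serpinb9g at -0.15 and Serpinb9d at -0.27. Close paralogs of this cluster may share probes, and a probe set that lists Serpinb9g with 3 other Serpinb9 genes gave -0.13 (adjusted p = 0.351). Of the genes not called, Serpinb1b, Serpinb6c, Serpinb9c, Serpinb9d and Serpinb9g were in the dimmest bin. On chromosome 1, Serpinb11 was called lower at -0.25 (SE 0.08, adjusted p = 0.0411). It was dim, at 4.38, 4.57 and 4.46 in wild-type and 4.21, 4.16 and 4.28 in knockout arrays, and with 1 array left out its call held only without wild-type 1, with adjusted p up to 0.124 in the other fits (-0.20 with 0.102 without wild-type 2). Serpinb2, Serpinb3a, Serpinb5, Serpinb7 and Serpinb12 were not called, with log2 fold changes from -0.11 to 0.08. Serpinb8 was not called at 0.38 (adjusted p = 0.287) and 0.01 without wild-type 2, while another of its probe sets gave -0.51 (adjusted p = 0.0361).

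Serpins of the other clades include the plasma inhibitors of coagulation, fibrinolysis and complement. Of 8 measured, 2 were called higher and 2 lower, shares close to the 21.6% and 27.7% of all genes. Serpinh1, the collagen chaperone HSP47 and no protease inhibitor, read 9.19, 9.20 and 9.20 in wild-type and 10.36, 10.41 and 10.63 in knockout arrays. The wild-type arrays were nearly equal and the knockout arrays all higher. Its log2 fold change was 1.27 (SE 0.09, adjusted p = 6.75e-05). Beside it, 10 of 15 fibroblast and matrix markers were called higher (66.7%, beside 21.6% of all genes). Their summed level on the linear scale, in units of 1000, was 5.91 to 6.99 in wild-type and 13.6 to 23.5 in knockout arrays. Their part in the result was not tested. Serping1, the C1 inhibitor of the complement and contact systems, read 10.42, 9.95 and 9.93 in wild-type and 10.34, 11.22 and 11.61 in knockout arrays. Knockout 1 lay inside the wild-type range. On the log2 scale the fold change was 0.95 (SE 0.30, adjusted p = 0.0339), and the call was lost without wild-type 2, wild-type 3, knockout 2 or knockout 3, with log2 fold changes of 0.88, 0.87, 0.87 and 0.68 and adjusted p up to 0.100. Without knockout 1 the log2 fold change was 1.31 (adjusted p = 0.00361).

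Antiplasmin and antithrombin were lower. Serpinf2, the inhibitor of plasmin, read 11.56, 9.98 and 11.52 in wild-type and 9.12, 9.03 and 9.25 in knockout arrays. Wild-type 2 lay below the other wild-type arrays and above every knockout array. The difference was 3.69-fold, with a log2 fold change of -1.88 (SE 0.39, adjusted p = 0.00602). Without wild-type 2 it was 5.29-fold, at -2.40 (SE 0.10, adjusted p = 1.97e-05). Serpinc1, antithrombin, read 6.32, 5.62 and 6.03 in wild-type and 4.71, 4.93 and 4.71 in knockout arrays, without overlap. It fell by 1.21 on the log2 scale (SE 0.17, adjusted p = 0.00121), from a probe set in the dimmest bin. Serpind1, heparin cofactor II, was just outside the threshold at -0.29 (adjusted p = 0.0573). Serpinf1, the neighbour of Serpinf2, gave 0.00 (95% interval -0.52 to 0.52), while another of its probe sets gave 1.31 (adjusted p = 0.0752). Serpini1 was not called at 0.28 (adjusted p = 0.173), and was called without wild-type 2 at 0.43 (adjusted p = 0.0441). Serpini2 was not called, at -0.16.

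Kunitz inhibitors of the cell surface rose and a secreted one fell. Spint1 and Spint2 are membrane-anchored inhibitors of matriptase, hepsin and prostasin. Spint1 read 9.31, 9.52 and 9.39 in wild-type and 9.99, 10.03 and 9.95 in knockout arrays, with a log2 fold change of 0.58 (SE 0.09, adjusted p = 0.00133). Spint2 read 11.65, 11.56 and 11.72 in wild-type and 12.21, 12.11 and 12.03 in knockout arrays, with 0.47 (SE 0.09, adjusted p = 0.00362), and its other probe set gave 0.48. Both differences were small, under 2-fold, and larger than the spread of either group. Tfpi2, a secreted inhibitor of plasmin and trypsin held in the matrix, read 9.01, 9.51 and 8.46 in wild-type and 7.86, 7.69 and 8.15 in knockout arrays. The groups did not overlap although the wild-type arrays were spread, and the log2 fold change was -1.09 (SE 0.25, adjusted p = 0.00964). Tfpi, the tissue factor pathway inhibitor, gave -0.20 (adjusted p = 0.130) on its brightest probe set and 0.43 (adjusted p = 0.0403) on another. Spint4 was not called at -0.28 (adjusted p = 0.0614).

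Kazal inhibitors showed modest changes. Of 8 measured, 2 were called higher and 2 lower, shares close to the 21.6% and 27.7% of all genes. Spink8 read 8.30, 8.29 and 8.10 in wild-type and 8.85, 9.47 and 9.50 in knockout arrays, with knockout 1 closest to the wild-type range. This gave a log2 fold change of 1.04 (SE 0.18, adjusted p = 0.00252). Spink12 read 5.69, 5.78 and 5.85 in wild-type and 6.59, 6.70 and 6.84 in knockout arrays, with a log2 fold change of 0.94 (SE 0.09, adjusted p = 0.000236). Spink1, the pancreatic secretory trypsin inhibitor, read 13.39, 13.38 and 13.30 in wild-type and 13.03, 12.96 and 12.91 in knockout arrays. It was bright on every array, near the top of the range, and the fall was small but tight at -0.39 (SE 0.08, adjusted p = 0.00574). Of 11 pancreatic acinar markers 7 were called lower (63.6%, beside 27.7% of all genes). Only 1 of these, Cela1 at -2.27, fell by at least 2-fold, and the median of the list was -0.37. Of the 11, 4 (Cela2a, Cpa1, Cpb1 and Pnliprp1) were below the lower quartile of all genes on every array. Spink4 fell by 0.67 (adjusted p = 0.00235). Spink2, Spink5, Spink10 and Spinkl were not called and lay in the dimmest bin, with log2 fold changes from -0.28 to 0.01.

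WAP proteins held the largest fall of the 82 genes. Of 12 measured, 4 were called higher, 5 lower, and 3 were not called. The shares called higher and lower, 33.3% and 41.7%, stood beside 21.6% and 27.7% of all genes. Wfdc15b, a small secreted protein with a single WAP domain, read 12.58, 12.90 and 12.85 in wild-type and 9.83, 9.31 and 9.86 in knockout arrays. No array came near the other group. It was 8.63-fold lower, with a log2 fold change of -3.11 (SE 0.16, adjusted p = 2.3e-05), and between -3.21 and -2.93 whichever array was left out. Its neighbours on chromosome 2, in the order Wfdc5, Wfdc12 and Wfdc15a before Wfdc15b, were also called lower but by far less, at -0.46, -0.58 and -0.38 (adjusted p = 0.0043, 0.00668 and 0.042). All 3 lay in the second bin. With 1 array left out, the call of Wfdc15a held only without wild-type 1, with adjusted p up to 0.119 in the other fits (-0.37 with 0.0751 without wild-type 2). Farther along the same chromosome Wfdc6a was lower at -0.44 (adjusted p = 0.0351), a call lost without wild-type 1, wild-type 3, knockout 1 or knockout 3 (adjusted p up to 0.110).

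Slpi and Wfdc2, encoded between Wfdc15b and Wfdc6a on chromosome 2, were higher. Slpi, the secretory inhibitor of neutrophil elastase and cathepsin G, read 8.08, 8.38 and 8.51 in wild-type and 9.87, 9.77 and 9.55 in knockout arrays. Its log2 fold change was 1.40 (SE 0.13, adjusted p = 0.000193). Wfdc2, also known as HE4 and made by many secretory epithelia, read 11.12, 11.76 and 10.76 in wild-type and 12.68, 12.76 and 12.77 in knockout arrays. The knockout arrays were nearly equal and the wild-type arrays spread, with wild-type 2 the highest. Its log2 fold change was 1.53 (SE 0.22, adjusted p = 0.00137), and 1.80 without wild-type 2. Wfdc17, a WAP protein of activated macrophages encoded on chromosome 11, read 7.10, 6.79 and 6.88 in wild-type and 8.74, 9.31 and 9.48 in knockout arrays. It was 4.77-fold higher, with a log2 fold change of 2.25 (SE 0.19, adjusted p = 0.000109). Its neighbour Wfdc18 was called at 0.38 (adjusted p = 0.0304), lost without wild-type 1, knockout 1 or knockout 2 (adjusted p up to 0.104). Wfdc1, Wfdc3 and Wfdc21 were not called, with log2 fold changes from -0.38 to -0.15.

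Of 12 cystatins and stefins measured, limma called 3 (25%) higher, near the 21.6% of all genes. It called 0 lower and 9 in neither direction, and at an unadjusted p under 0.05 the counts were 3 higher and 2 lower. The 9 genes not called all had negative log2 fold changes, from -0.25 to -0.06, and all lay in the dimmest bin. A negative sign was common there: among all genes of that bin, 682 of 4548 lay above 0 and the median was -0.19. Cstb, stefin B, the inhibitor of cathepsins in the cytosol, read 12.14, 12.20 and 11.83 in wild-type and 13.33, 13.31 and 13.21 in knockout arrays. The groups did not overlap. On the log2 scale the fold change was 1.22 (SE 0.11, adjusted p = 0.000162), and 1.75 on its other probe set. Cst3, cystatin C, is secreted by most cells and filtered and taken up by the kidney tubule. It read 11.69, 11.57 and 11.33 in wild-type and 12.02, 12.18 and 12.27 in knockout arrays, a log2 fold change of 0.62 (SE 0.12, adjusted p = 0.00418). Cst7, cystatin F, is made by leukocytes and inhibits cathepsin C. It was dim, at 4.55, 4.57 and 4.94 in wild-type and 5.50, 5.55 and 5.06 in knockout arrays, with a log2 fold change of 0.69 (SE 0.16, adjusted p = 0.0106). Cst11 was the closest to the threshold among the others, at -0.25 (adjusted p = 0.0661), and was called without wild-type 2 at -0.33 (adjusted p = 0.0207). Cstad, set apart above, gave 0.22 (adjusted p = 0.114).

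Heavy chains of the inter-alpha-trypsin inhibitor are transferred onto hyaluronan of the matrix, while bikunin, encoded by Ambp, carries the protease-inhibiting domains. Of 4 heavy chains, 1 was called higher and 2 lower, where 21.6% and 27.7% of all genes were called. Itih3 read 5.94, 6.06 and 6.09 in wild-type and 8.49, 8.46 and 8.42 in knockout arrays. Both groups were very tight, and the difference was 5.38-fold, with a log2 fold change of 2.43 (SE 0.08, adjusted p = 5.45e-06). Its neighbour Itih1 on chromosome 14 gave -0.01 (adjusted p = 0.949), with a 95% interval from -0.37 to 0.34. Itih5 read 9.96, 9.92 and 9.92 in wild-type and 7.84, 7.75 and 8.40 in knockout arrays, with knockout 3 the highest of its group. It was 3.83-fold lower, with a log2 fold change of -1.94 (SE 0.16, adjusted p = 0.000118), and its 2 other probe sets gave -0.90 and -1.67. Itih2, next to Itih5 on chromosome 2, read 7.07, 6.70 and 7.77 in wild-type and 5.82, 5.90 and 5.89 in knockout arrays. It fell by 1.31 on the log2 scale (SE 0.24, adjusted p = 0.00357). Ambp read 5.26, 5.36 and 5.30 in wild-type and 7.12, 6.60 and 6.60 in knockout arrays, a log2 fold change of 1.46 (SE 0.15, adjusted p = 0.000227).

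**Figure D4:**
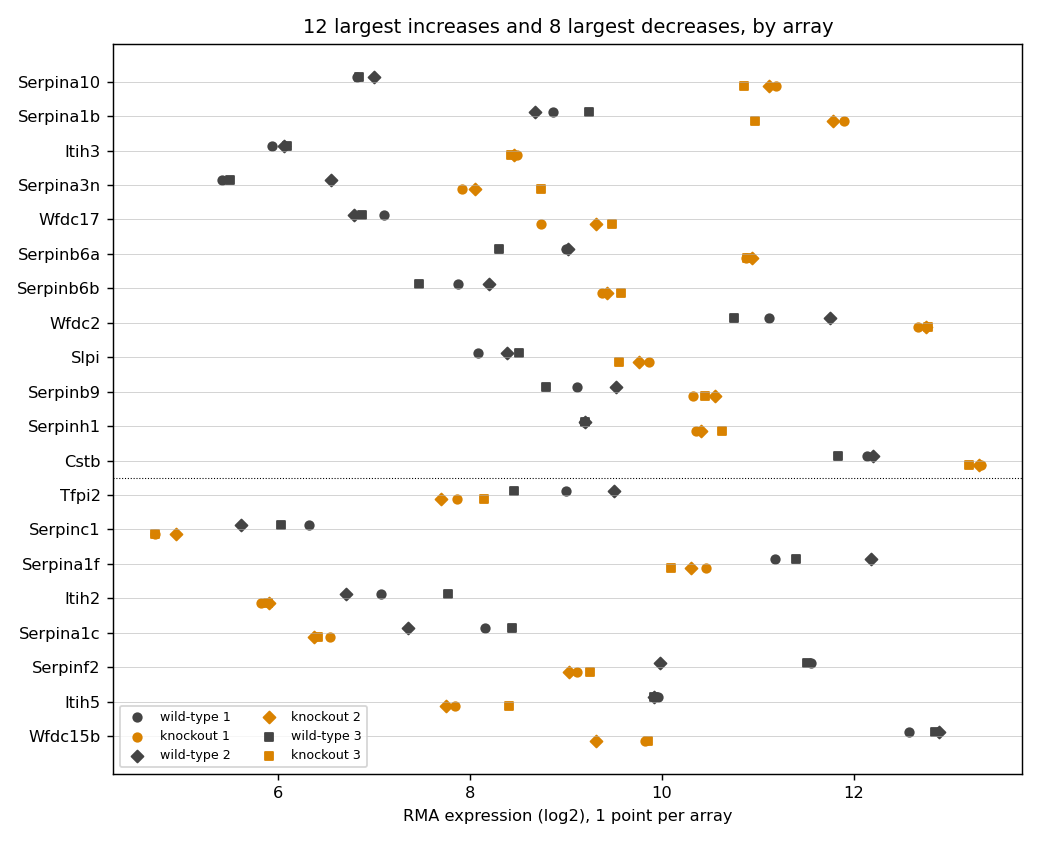
RMA expression (log2, x axis) of the 12 genes with the largest rise (above the dotted line) and the 8 with the largest fall (below it), 1 point per array, with wild-type in grey and knockout in orange and the array number by symbol. In all 20 genes the knockout points lie wholly on one side of the wild-type points, which is how the genes were chosen, and wild-type 2 (diamond) is set off from the other wild-type arrays in Serpinf2 at 9.98 and Serpina3n at 6.55.

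Several cell types of the tissue moved with these genes. The counts below stand beside 21.6% of all genes called higher and 27.7% called lower. Proximal tubule markers were called lower in 15 of 17, with a median of -1.50 and a summed linear level, again in units of 1000, of 144 to 169 in wild-type and 63.0 to 67.8 in knockout arrays. Loop of Henle and distal tubule markers were called lower in 10 of 11, with summed levels of 79.4 to 88.9 in wild-type and 37.0 to 46.5 in knockout arrays. Collecting duct markers were called lower in 4 of 12, and endothelial markers lower in 7 of 14 and higher in 3. Markers of tubular injury were called higher in 14 of 14, with summed levels of 9.25 to 14.0 in wild-type and 60.3 to 61.0 in knockout arrays. Macrophage and monocyte markers were called higher in 13 of 14, with 4.83 to 6.39 in wild-type and 13.4 to 18.7 in knockout arrays. In bulk tissue fewer cells of a type and less RNA per cell cannot be told apart. The fall of Serpinf2, Serpina1c, Serpina1f, Wfdc15b, Itih5 and Spink1 stood beside the fall of these tubule lists, and the rise of Wfdc17, Serpinb9, Slpi and Cst7 beside that of the macrophage list. The part of any of these lists in these results was not tested. Lymphocyte and plasma cell markers were called higher in 8 of 12 and lower in 1, and mast cell markers higher in 1 of 9 and lower in 5. Neutrophil markers, beside which Slpi and Serpinb1a rose, were called higher in 1 of 12 and lower in 4 (8.33% and 33.3%). Their summed level was 0.546 to 0.584 in wild-type and 0.477 to 0.521 in knockout arrays.

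Many clade A serpins and heavy chains are also secreted by liver. Of 17 hepatocyte markers, 5 were called higher and 6 lower (29.4% and 35.3%, beside 21.6% and 27.7% of all genes), with a median of -0.11. Their summed level was 15.5 to 22.7 in wild-type and 12 to 15.3 in knockout arrays. Bright genes weigh most in such a sum, and Cyp2e1 read 13.83, 12.73 and 13.89 in wild-type and 12.05, 11.94 and 12.38 in knockout arrays. Cps1, Cyp3a11 and Hpx were below the lower quartile of all genes on every array. The 5 higher were the fibrinogen chains Fgg at 2.98, Fgb at 1.86 and Fga at 1.56, with Ambp at 1.46 and Apoc3 at 0.77. The 6 lower were Alb, the albumin gene, at -1.59, Cyp2e1 at -1.36, Apoa2 at -0.81, Ahsg at -0.47, Apoa1 at -0.45 and Tat at -0.29. The part of this list in the rise of Serpina10, Serpina1b and Itih3 was not tested.

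The proteases that these inhibitors act on, or that share their compartments, were called higher in 22 and lower in 17 of 68 genes measured. The share called higher was 32.4%, beside 21.6% of all genes. The share called lower was close to the 27.7% of all genes. Lower calls numbered 11 without knockout 1 or without knockout 3. Among 20 genes of coagulation and fibrinolysis, with their receptors and cofactors, 7 were higher and 6 lower (35.0% and 30.0%). F3, tissue factor, which starts coagulation, read 8.09, 7.97 and 8.18 in wild-type and 10.32, 10.37 and 10.25 in knockout arrays. It rose by 2.23 (SE 0.09, adjusted p = 9.55e-06). F13a1, the fibrin cross-linker, was higher at 2.15 (SE 0.50, adjusted p = 0.0106), with knockout values as far apart as 6.58, 7.23 and 8.83. Klkb1, plasma kallikrein and a target of the C1 inhibitor, was lower at -1.58 (SE 0.20, adjusted p = 0.000765). Proc, protein C, was lower at -1.26 (SE 0.15, adjusted p = 0.000466). Within this system the plasmin inhibitor gene Serpinf2 and the antithrombin gene Serpinc1 fell while F3 and Serpina10 rose. The list itself moved both ways. Also called higher were Plaur at 2.05, Pros1 at 1.36, Plat at 1.21, C1ra at 1.04 and C1s1 at 0.82. Also called lower were F10 at -0.63, F2 at -0.60, Masp2 at -0.42 and F7 at -0.29. Plg was not called, at -0.19.

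Among 20 membrane and epithelial serine proteases, 4 were higher and 5 lower. Both shares were close to those of all genes, 21.6% and 27.7%. St14, matriptase, a target of Spint1 and Spint2, read 8.39, 8.84 and 8.36 in wild-type and 9.93, 9.80 and 9.80 in knockout arrays, a rise of 1.32 (SE 0.14, adjusted p = 0.000275). Prss8, prostasin, which acts in a cascade with matriptase, read 11.39, 11.39 and 11.70 in wild-type and 10.42, 10.30 and 10.25 in knockout arrays. It was lower at -1.17 (SE 0.11, adjusted p = 0.000179). Hpn, hepsin, another target of Spint1 and Spint2, was lower at -0.56 (SE 0.14, adjusted p = 0.0145). The genes for matriptase and its inhibitors were thus higher and those for prostasin and hepsin lower. Klk1, tissue kallikrein of the distal nephron, was lower at -1.35 (SE 0.18, adjusted p = 0.00092), and Fap was higher at 1.02 (SE 0.23, adjusted p = 0.00889).

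Of the 16 genes in the cysteine protease list, 11 were called higher and 1 lower (68.8% and 6.25%, beside 21.6% and 27.7% of all genes). Among its 11 cathepsins and legumain, which cystatins inhibit to differing degrees, 6 were higher and 1 lower, and 5 of 5 calpain and caspase genes, which cystatins do not inhibit, were higher. Ctss, cathepsin S of antigen-presenting cells, read 9.58, 9.43 and 8.64 in wild-type and 10.98, 11.41 and 11.39 in knockout arrays, a rise of 2.04 (SE 0.24, adjusted p = 0.000518). Ctsc, cathepsin C, the activator of granule proteases and a target of Cst7, rose by 1.59 (SE 0.17, adjusted p = 0.000319). Ctsf was the 1 gene called lower, at -0.86 (SE 0.08, adjusted p = 0.000218). The last list held 12 granule proteases of granulocytes, mast cells and lymphocytes, only some of which are targets of Slpi, Serpinb1a or Serpinb9. In it limma called 0 higher and 5 lower (41.7%, beside 27.7% of all genes). At an unadjusted p under 0.05 the counts were 1 higher and 8 lower. By the rule for named genes, the lower calls described are Elane, neutrophil elastase, at -0.40 (adjusted p = 0.0393), and Mcpt4, a mast cell protease, at -0.39 (adjusted p = 0.014). The call of Elane was lost without wild-type 3 or any 1 knockout array (adjusted p up to 0.120), and that of Mcpt4 without knockout 1 or knockout 3 (0.0521 and 0.0548). Cpa3, Gzma and Mcpt8 of that list were below the lower quartile of all genes on every array.

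**Figure D5:**
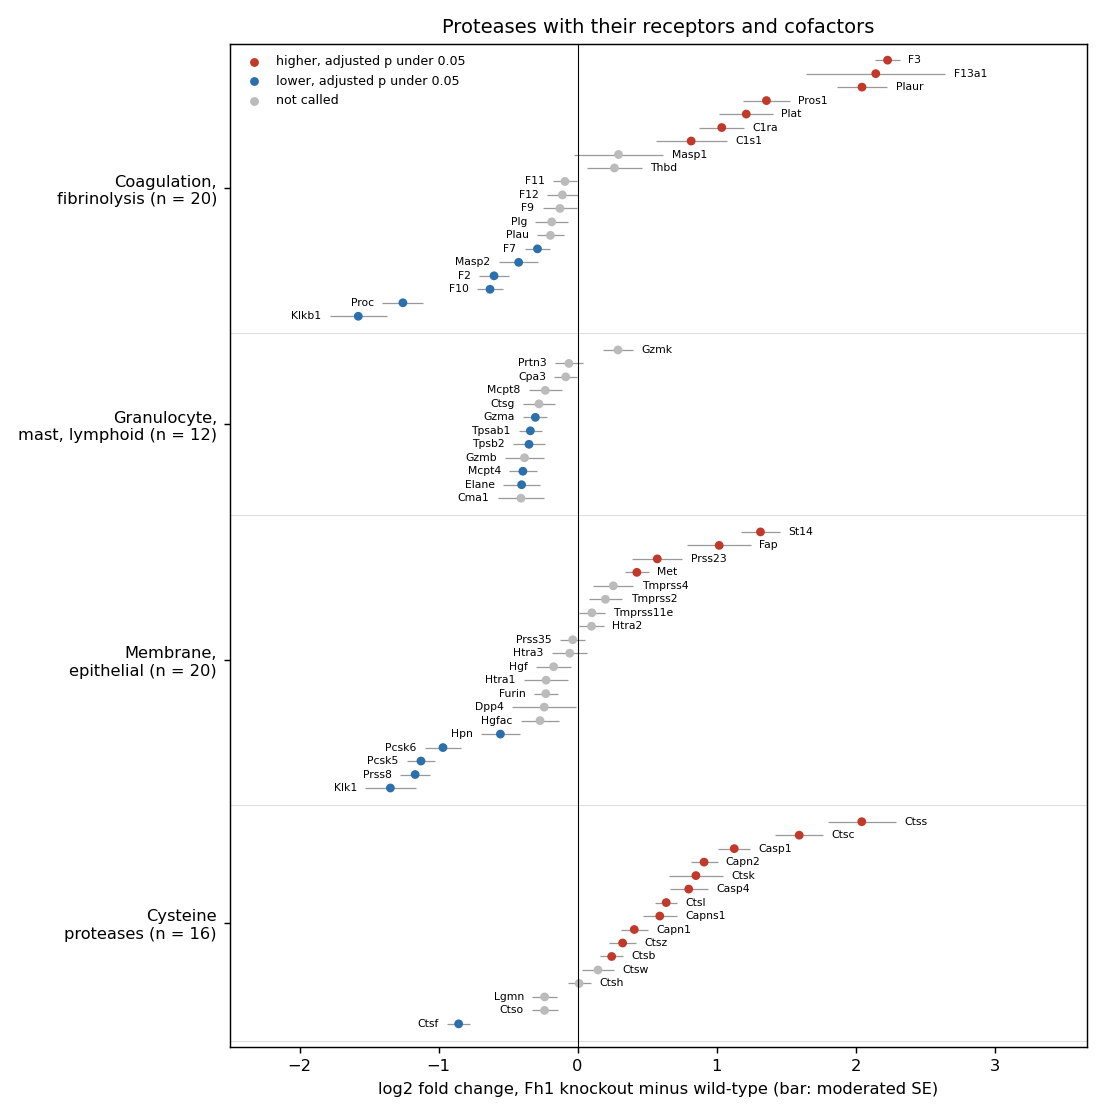
Log2 fold change (knockout minus wild-type, x axis) of 68 proteases with their receptors and cofactors in 4 lists, drawn as for the inhibitors: points from 3 against 3 arrays, bars for moderated SEs, red for called higher, blue for called lower and grey for not called. In the cysteine protease list 11 of 16 points are red, and in the granule protease list none is.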

How the data were processed

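Expression was measured on 6 arrays, grouped by their labels into 3 Fh1 knockout and 3 wild-type samples. The deposited values are on the log2 scale and come from RMA, per the submitters' processing notes; that scale was inferred from their range, and the chip definition is not given in the sources used here. Of 45101 probe sets, 34945 list 1 gene in the platform annotation, and where a gene had several, the one brightest on average was kept, which left 18193 genes. All 18193 genes were fitted in limma 3.58.1 under R 4.3.3 (lmFit, then eBayes), without covariates or a filter on dim genes, and adjusted by Benjamini-Hochberg with a threshold of 0.05. The fit was tested on simulated data. Python 3.11.15, pandas 2.3.3, Biopython 1.88 and matplotlib 3.10.9 made the tables, promoter alignments and plots. Arrays have no counting depth, and 3 samples per group limit the precision.

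The inhibitor genes and all lists were chosen with earlier results of these data known. Full values are given for the called, non-overlapping inhibitor genes with the 12 largest rises and 8 largest falls. Also named by rule are up to 2 called genes per family and direction, the 5 brightest and the 3 nearest above the threshold. Some of these are given by fold change and adjusted p only. From each target list 2 called genes per direction were taken. Other inhibitor genes are named to complete their family, after their values were seen. So are other coagulation and fibrinolysis genes, Hpn, Hgf and Met, to complete their comparisons or lists. A summed marker level is the sum of linear values over the list. Tried as alternatives were averaging or fitting all probe sets, filters on dim genes, a trended robust prior, other centring, quantile normalisation, weighted arrays, the replicate number as a block, omission of each array and stricter thresholds.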

Additional observations from a re-analysis of the deposited data

How the results depend on the processing

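The counts of called inhibitor genes, 22 higher and 18 lower, stayed within 1.5 times under most alternatives. Requiring a 2-fold change left 13 higher and 8 lower, by construction. With genes under the median signal left out, 6 were lower, since 56 of the 82 genes were not tested there, and with arrays centred on the tested genes 30 were lower. For target proteases, 22 higher and 17 lower, a 2-fold minimum left 11 and 5, the median signal filter left 8 lower, and a threshold of 0.01 left 9 lower. Leaving out 1 array gave 20 to 23 inhibitor genes higher and 13 to 20 lower, and 18 to 21 target genes higher and 11 to 20 lower, with 11 without knockout 1 or knockout 3; the cause was not tested. Across the genes named by rule no setting turned a direction. Serping1 was also lost with a trended robust prior, array weights and the replicate block (adjusted p = 0.0586, 0.0895 and 0.0536).

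Replicate numbers did not pair the samples: deviations of same-numbered arrays correlated at -0.10, -0.13 and -0.13. With the replicate number as a block, 20 inhibitor genes were higher and 14 lower, and 18 target genes higher and 13 lower. RMA values carry no detection call, so for dim genes a missing call does not show that a gene did not change.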
